A study of Mus musculus with 24 samples.

Results

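The genes considered here are the IFIT family and the ISG15 system of the mouse, together with a pair of antiviral effectors that are induced with them. They were taken by symbol from the table of gene counts. The 10 members are *Ifit1*, *Ifit2*, *Ifit3* and *Ifit3b*, *Isg15* with *Uba7*, *Herc6* and *Usp18*, and *Rsad2* and *Ifi44*. Each symbol matched 1 Ensembl identifier among the 47937 gene entries, and 10 of 10 passed the filter on low counts that 18565 genes passed.

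RNA-seq libraries were made from mouse embryonic fibroblast (MEF) lines in which the 6 genes encoding histone H3 lysine 9 methyltransferases (H3K9 KMTs) had been inactivated in different combinations. There were 24 libraries in 8 conditions, with 3 libraries each. WT stands for the *Eset1*-conditional line (*Eset1* cKO), whose floxed exons were left intact. *E1* is the same line after 4-hydroxytamoxifen (4-OHT) activated its inducible Cre and *Eset1* was deleted. In the first clone series, *Suv39h1* and *Suv39h2* were inactivated next (*E1 S1S2*), followed by *Eset2*, *G9a* and *Glp* (*6KO1*). In the second series, *Eset2* was inactivated first, giving *E2*, which still carried conditional *Eset1*, and *E1E2* after 4-OHT. *G9a* and *Glp* followed (*E1E2 G9Gl*), and then *Suv39h1* and *Suv39h2* (*6KO2*), so *6KO1* and *6KO2* lack the same 6 genes. Apart from *E1*, each mutant line is a single clone made by CRISPR/Cas9 from the same conditional MEFs, so a genotype cannot be told apart from the clone that carries it. After gene disruption, the inducible Cre was introduced again together with puromycin resistance, and the lines were kept under puromycin. By their titles, the WT and *E2* libraries came from control cells and those of the other 6 conditions from cells treated with 4-OHT. The treatment field of the labels names 4-OHT for all 24 libraries without separating them, so the titles were followed, and each value for *E1* against WT or *E1E2* against *E2* rests on them. As labelled, in the comparisons of the 6 treated conditions with WT, 4-OHT and *Eset1* deletion cannot be told apart.

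Type I interferon, released when a cell detects viral or misplaced nucleic acid, binds its receptor and activates a transcription factor complex that holds IRF9 and binds the interferon-stimulated response element (ISRE) of target promoters. IFIT proteins bind viral RNA, in particular RNA whose 5′ end lacks the cap methylation of host messages. ISG15 is a ubiquitin-like protein that an enzyme cascade joins to other proteins: UBA7 activates it, UBE2L6 carries it, HERC6 is the main ligase in the mouse, and USP18 removes it and also dampens signalling at the interferon receptor. RSAD2 (viperin) makes a modified nucleotide that stops viral polymerases, and IFI44 is an interferon-induced cytoplasmic protein.

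The promoters are shown because the members differ in their matches to the ISRE core. RefSeq (GRCm38.p6) listed a promoter, from 250 bases before to 50 bases after the annotated start, for 9 of the 10 members, *Usp18* being the exception. The ISRE core was searched as GAAANNGAAA on both strands, overlapping matches included, and the gamma-activated site (GAS) as TTCNNNGAA. In the sequences below, 5′ to 3′ on the strand of the gene, the capitals mark the ISRE cores; a core on the opposite strand appears as its reverse complement.

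*Ifit1*, chr19:34640639-34640938, plus strand: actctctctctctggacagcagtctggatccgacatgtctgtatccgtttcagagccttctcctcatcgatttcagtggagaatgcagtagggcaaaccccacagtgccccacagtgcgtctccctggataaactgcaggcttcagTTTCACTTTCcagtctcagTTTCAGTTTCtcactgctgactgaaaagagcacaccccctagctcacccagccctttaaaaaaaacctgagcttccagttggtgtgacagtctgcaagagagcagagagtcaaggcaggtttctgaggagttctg

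*Ifit3*, chr19:34583279-34583578, plus strand: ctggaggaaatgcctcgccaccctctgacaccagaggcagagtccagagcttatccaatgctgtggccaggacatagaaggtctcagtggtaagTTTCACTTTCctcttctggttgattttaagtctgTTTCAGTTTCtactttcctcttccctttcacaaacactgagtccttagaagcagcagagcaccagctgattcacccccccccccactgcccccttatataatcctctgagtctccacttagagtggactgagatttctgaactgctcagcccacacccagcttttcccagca

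*Ifit3b*, chr19:34607707-34608006, plus strand: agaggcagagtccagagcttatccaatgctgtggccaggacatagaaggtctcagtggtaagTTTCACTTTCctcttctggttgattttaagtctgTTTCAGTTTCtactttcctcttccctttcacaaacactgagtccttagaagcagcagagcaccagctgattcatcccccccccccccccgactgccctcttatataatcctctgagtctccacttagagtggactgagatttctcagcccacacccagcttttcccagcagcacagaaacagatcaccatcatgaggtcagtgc

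*Isg15*, chr4:156200769-156201068, minus strand: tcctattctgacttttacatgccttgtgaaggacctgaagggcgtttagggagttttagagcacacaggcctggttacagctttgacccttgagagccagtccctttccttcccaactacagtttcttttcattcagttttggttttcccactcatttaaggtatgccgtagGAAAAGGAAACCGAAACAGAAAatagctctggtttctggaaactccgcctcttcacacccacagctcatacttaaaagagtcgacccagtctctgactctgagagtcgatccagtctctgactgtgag

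*Rsad2*, chr12:26456403-26456702, minus strand: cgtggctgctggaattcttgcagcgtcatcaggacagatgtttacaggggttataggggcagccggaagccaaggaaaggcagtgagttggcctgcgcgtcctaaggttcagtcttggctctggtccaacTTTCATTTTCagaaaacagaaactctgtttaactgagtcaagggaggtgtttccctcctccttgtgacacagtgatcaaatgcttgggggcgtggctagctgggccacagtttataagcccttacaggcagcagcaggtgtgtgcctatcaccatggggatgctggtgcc

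*Ifi44*, chr3:151749861-151750160, minus strand: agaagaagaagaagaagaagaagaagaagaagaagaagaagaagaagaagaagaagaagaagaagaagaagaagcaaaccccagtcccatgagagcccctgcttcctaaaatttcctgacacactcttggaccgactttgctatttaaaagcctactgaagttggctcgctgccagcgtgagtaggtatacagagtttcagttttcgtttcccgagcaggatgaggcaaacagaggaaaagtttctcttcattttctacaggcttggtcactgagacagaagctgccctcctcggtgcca

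The ISRE core was found in the promoters of 5 members and in 1131 of the 32851 mouse promoters of the same length (3.443%). *Ifit1*, *Ifit3* and *Ifit3b* held 2 cores each, *Isg15* held 3 overlapping ones that begin 78, 72 and 66 bases before the start, and *Rsad2* held 1. At least 2 cores were present in 4 members and in 0.225% of all promoters. The promoters of *Ifit3* and *Ifit3b* were near copies, with 259 of 260 aligned bases identical and 80 gap bases, and their cores began 156 and 122 bases before the start of *Ifit3* and 188 and 154 bases before that of *Ifit3b*. *Ifi44*, *Uba7*, *Herc6* and both promoters of *Ifit2* held no match to these letters in this window. The only GAS match among the members was in the first *Ifit2* promoter, against 8.298% of all promoters.

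**Figure D1:**
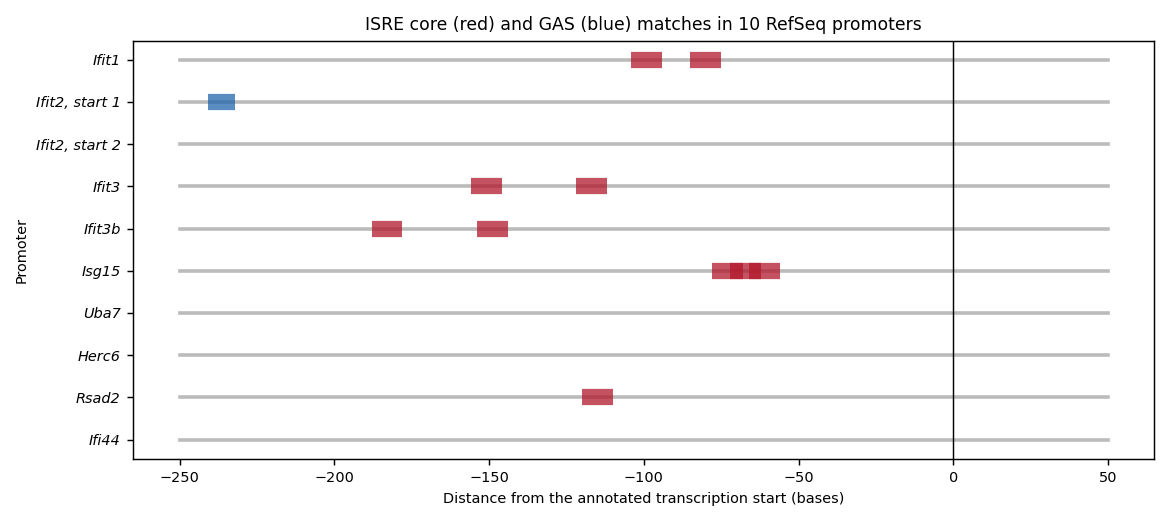
Positions of ISRE core (red) and GAS (blue) matches in the RefSeq promoters of 9 members, in bases from the annotated transcription start, with grey lines for the 300 bases searched. The cores of *Ifit1*, *Ifit3*, *Ifit3b*, *Isg15* and *Rsad2* begin between 188 and 66 bases before the start, and *Isg15* holds 3 overlapping ones.

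The 4 IFIT members lie side by side on the plus strand of chromosome 19 (GRCm38), from *Ifit2* at 34550694 to the end of *Ifit1* at 34650009. The IFIT relatives *Ifit1bl1* and *Ifit1bl2* lie between them on the minus strand. The other members are spread over the genome, with *Isg15* on chromosome 4 (156199424-156200818), *Herc6* and *Usp18* on chromosome 6, *Uba7* on chromosome 9, *Rsad2* on chromosome 12 and *Ifi44* on chromosome 3. Some of the counts cannot be fully separated. Of all 75-base windows in the *Ifit3* transcripts, 41.11% occur unchanged in *Ifit3b*, so reads may have been split between the pair, and 5.19% of those of *Ifit1* occur in *Ifit1bl2*. *Herc6* shares 1269 exonic bases with *Gm45193* and *Uba7* shares 233 with *Gm20661*, both on the same strand.

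The libraries held 24737307 to 37419816 counts, of which 19541909 to 31489070 were on genes. Levels are given as CPM, a gene's counts relative to the library's total on genes, after TMM scaling. The words "upregulated" and "downregulated" stand for a log2 fold change of at least 1 in size with a Benjamini-Hochberg adjusted p of at most 0.01 in edgeR's quasi-likelihood test over all 18565 genes. The summed level of 8 fibroblast markers was 5562 to 6730 CPM in WT, 2885 to 3138 in *6KO1* and between 3904 and 7705 in the other mutants. *Vim* and *Pdgfrb* were not called in any condition against WT, but 5 of the 8 were downregulated in *6KO1* (all genes, 10.2%), where *Thy1* had 0 to 1 counts per library and *Dcn* 0 to 2. In WT these had 176 to 220 and 24 to 48 counts. *Thy1*, a fibroblast surface antigen, also had 0 to 2 counts in *E1 S1S2* and 0 to 4 in *6KO2*, and *Dcn* had 0 to 3 in *E1E2 G9Gl*. Further calls outside *6KO1* were downward. *Col3a1* was downregulated in *E1* (log2 fold change -1.20), *E1 S1S2* (-2.72) and *E1E2* (-1.09), and *Col1a2* in *E1 S1S2* (-2.49) and *6KO2* (-1.415). *Pdgfra* was downregulated in *E2* (-1.27) and *E1E2 G9Gl* (-3.23), *Thy1* in *E2* (-2.87) and *E1E2* (-2.01), and *Dcn* in *E1* (-1.80). The remaining calls went up. *Dcn* was upregulated in *E2* (log2 fold change 1.62), *E1E2* (1.34) and *6KO2* (1.92), and *Thy1* (1.05) and *Col3a1* (1.43) in *E1E2 G9Gl*. The RNA of the targeted genes was a weak check of the genotypes, since a frameshift need not remove the message and the gene count covers more than the floxed *Eset1* exons. *Eset1* (*Setdb1*) fell from a mean of 60.4 CPM in WT to 40.7 in *E1*, but was 48.7 in *E2* and 48.8 in the libraries labelled *E1E2*, so it did not separate these conditions. *G9a* (*Ehmt2*) had means of 128 CPM in WT, 50.9 and 86.2 in the 6-gene mutants *6KO1* and *6KO2*, and 39.6 in *E1E2 G9Gl*.

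In WT MEFs the members ranged widely in level. Per kilobase of exon, *Ifit2* was the highest at 16.8 CPM per kb, followed by *Isg15* at 12.5 and *Ifit1* at 11.6. The lowest were *Ifi44* at 0.0614 and *Usp18* at 0.0635 CPM per kb, a span of 274-fold. In *6KO1* this span narrowed to 32.8-fold, between *Uba7* at 4.15 and *Isg15* at 136 CPM per kb. *Isg15* was the highest member per kilobase in each condition except WT.

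Against WT, the fitted change of all 10 members was positive in each of the 7 mutant conditions, and none was downregulated. The number upregulated was 2 in *E1*, where 2.27% of all genes tested were upregulated and 1.99% downregulated. It was 9 in *E1 S1S2* (all genes, 6.65% up and 5.11% down) and 10 in *6KO1* (all genes, 20.6% up and 10.2% down). In the second series it was 3 in *E2* (all genes, 2.9% up and 3.21% down) and 9 in *E1E2* (all genes, 5.51% up and 3.22% down). *E1E2 G9Gl* had 9 (all genes, 16.8% up and 8.41% down), as did *6KO2* (all genes, 15.3% up and 5.39% down). Without *6KO2* replicate 3 the count in *6KO2* was 7, as *Ifit1* (0.96) and *Uba7* (0.9986) then missed the fold threshold. Along the first series the median log2 fold change of the members went from 0.72 (*E1*) to 2.19 (*E1 S1S2*) and 3.67 (*6KO1*). Along the second it went from 1.07 (*E2*) to 2.68 (*E1E2*), 3.01 (*E1E2 G9Gl*) and 1.49 (*6KO2*). The median of all genes tested lay between -0.01 and 0.06. These comparisons share the WT libraries. In *E1 S1S2*, *6KO1*, *E1E2*, *E1E2 G9Gl* and *6KO2*, every library exceeded every WT library for 10 of 10 members, against 8 in *E1* and 4 in *E2*.

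**Figure D2:**
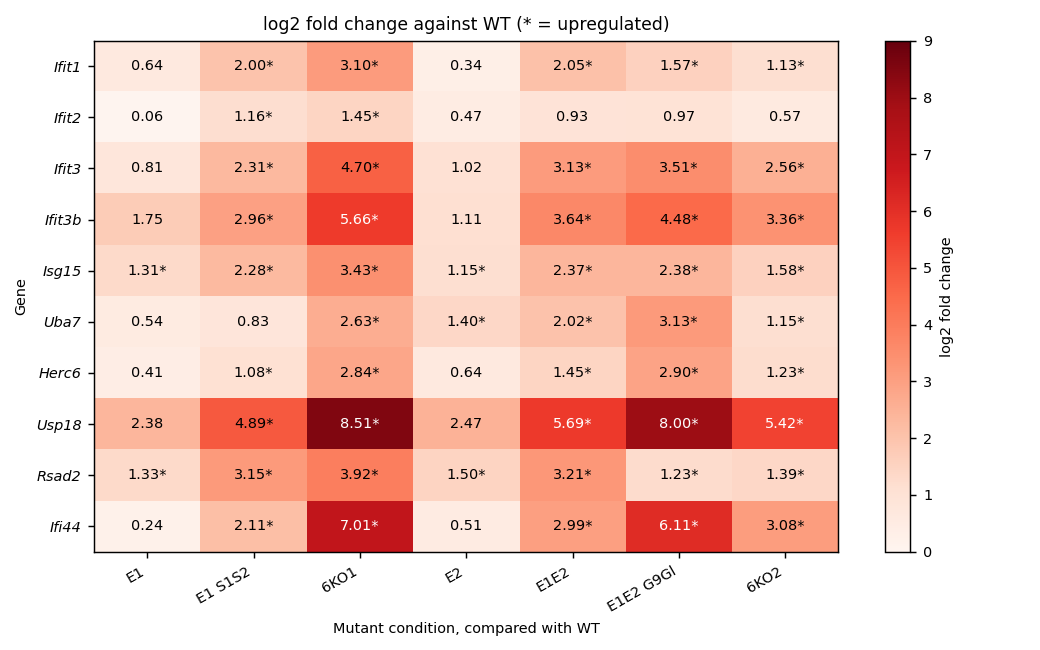
Fitted log2 fold change of each member (rows) in each mutant condition (columns) against WT, with 3 libraries per condition. Asterisks mark upregulated genes. *Usp18* had the deepest shade in all 7 columns, reaching 8.51 in *6KO1*, while *Ifit2* stayed between 0.06 and 1.45.

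The counts in the single-step mutants *E1* and *E2* depended on libraries that stood apart. In *E1*, *Isg15* and *Rsad2* were upregulated, and 4 members were when *6KO2* replicate 2 was left out of the shared fit, because *Ifit3b* and *Usp18* were added. In *E2*, *Isg15*, *Uba7* and *Rsad2* were upregulated, and 5 were without *E2* replicate 2 or without *6KO2* replicate 2, with *Ifit3* and *Usp18* added. For all 3 of those called in *E2*, every *E2* library was above every WT library.

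*Isg15*, the ubiquitin-like modifier itself, measured 7.87, 12.4 and 8.16 CPM in the WT libraries. It measured 22.6, 19.0 and 29.2 in *E1*, 48.6, 43.4 and 46.5 in *E1 S1S2* and 91.2, 104 and 113 in *6KO1*. In the second clone series it was 23.1, 17.4 and 23.0 CPM in the *E2* libraries and 48.5, 50.5 and 48.8 in those labelled *E1E2*. The *E1E2 G9Gl* libraries measured 47.8, 50.8 and 50.2 CPM, and the *6KO2* libraries 30.4, 23.2 and 31.8 CPM. All mutant libraries lay above the WT libraries, and *6KO1* lay above all others. *Isg15* was the only member besides *Rsad2* that was upregulated against WT in each of the 7 conditions, from 1.15, SE 0.17, adjusted p = 8.39e-06 in *E2* to 3.43, SE 0.16, adjusted p = 8.46e-15 in *6KO1*.

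*Uba7*, which encodes the activating enzyme, followed another order. Its levels were 5.05, 3.93 and 4.56 CPM in WT, 6.52, 6.24 and 6.87 in *E1*, 7.94, 7.30 and 8.77 in *E1 S1S2* and 29.3, 28.2 and 25.9 in *6KO1*. They were 14.2, 9.14 and 12.6 CPM in the *E2* libraries and 18.5, 17.9 and 18.4 in those labelled *E1E2*. The *E1E2 G9Gl* libraries measured 42.2, 37.0 and 39.3 CPM, and the *6KO2* libraries 10.1, 7.81 and 11.9 CPM. The highest levels were in *E1E2 G9Gl*, whose libraries did not overlap those of *6KO1*, the next in order. *Uba7* was upregulated in *6KO1* (log2 fold change 2.63, SE 0.14, adjusted p = 9.43e-14) and in *E1E2 G9Gl* (3.13, SE 0.14, adjusted p = 3.92e-15), but not in *E1* (0.54, adjusted p = 0.0134) or *E1 S1S2* (0.83, adjusted p = 6.36e-05), where it missed the fold threshold although all libraries lay above WT.

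*Herc6*, the ligase, shared with *Uba7* a top level in *E1E2 G9Gl*. It measured 10.7, 12.9 and 12.3 CPM in WT, 82.7, 86.3 and 89.6 in *6KO1* and 88.1, 92.3 and 87.5 in *E1E2 G9Gl*, and the libraries of the latter conditions overlapped. In the remaining conditions its levels ranged from 15.4 CPM in an *E1* library to 36.2 in an *E1E2* library. It was upregulated in 5 of the 7 conditions, with a value on the log2 scale of 2.84, SE 0.09, adjusted p = 8.47e-18 for *6KO1*. *Uba7* and *Herc6* were the 2 members whose highest condition was not *6KO1*.

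*Usp18*, the ISG15 protease, had the largest change of the members in every mutant condition. In WT it was near the detection limit, with 2, 8 and 4 counts in the libraries, or 0.0842, 0.288 and 0.159 CPM. It measured 1.00, 0.585 and 1.28 CPM in *E1*, 5.63, 5.15 and 5.82 in *E1 S1S2* and 62.5, 70.2 and 72.4 in *6KO1*. The second series gave 1.503, 0.212 and 1.59 CPM in the *E2* libraries and 9.61, 10.2 and 9.27 in those labelled *E1E2*. The *E1E2 G9Gl* libraries measured 49.7, 49.1 and 45.4 CPM, and the *6KO2* libraries 7.88, 3.34 and 12.8 CPM. *E2* replicate 2 lay within the WT range, and all other mutant libraries lay above it. The log2 fold change was 8.51, SE 0.45, adjusted p = 7.23e-14 in *6KO1* and 8.004, SE 0.46, adjusted p = 3.19e-13 in *E1E2 G9Gl*, and the low WT counts make the size of these folds uncertain by the SE given. In *E1* (2.38, adjusted p = 0.0384) and *E2* (2.47, adjusted p = 0.0195) the changes did not pass the adjusted p threshold.

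Of the further genes of the conjugation cascade, *Ube2l6*, the ISG15 carrier enzyme, was upregulated in 5 conditions, with a mean of 2.87 CPM in WT, 24.6 in *6KO1* and 36.7 in *E1E2 G9Gl*. Its log2 fold change was 3.10 (adjusted p = 1.13e-11) in *6KO1* and 1.52 (adjusted p = 5.50e-06) in *6KO2*. *Trim25*, a ubiquitin ligase that also acts on ISG15, was upregulated in *6KO1* at 1.25 and in *E1E2* at 1.05. *Arih1*, a constitutive ligase, was called in none of the pairwise comparisons and had a log2 fold change of -0.49 in *6KO1*. *Ube2l6*, like *Uba7* and *Herc6*, had its highest mean in *E1E2 G9Gl*.

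*Ifit1*, which binds RNA ends lacking the host cap methylation, measured 25.8, 40.2 and 26.2 CPM in WT, 45.2, 45.7 and 53.3 in *E1*, 123, 124 and 123 in *E1 S1S2* and 241, 269.6 and 283 in *6KO1*. Along the second series the levels were 43.5, 29.1 and 44.5 CPM in the *E2* libraries and 145, 122 and 116 in those labelled *E1E2*. The *E1E2 G9Gl* libraries measured 91.0, 93.2 and 90.5 CPM, and the *6KO2* libraries 67.1, 53.1 and 82.1 CPM. The peak of the second series was thus in *E1E2*, which did not overlap *E1E2 G9Gl*. The log2 fold change against WT was 3.10, SE 0.17, adjusted p = 1.03e-13 in *6KO1* and 1.13, SE 0.16, adjusted p = 2.38e-06 in *6KO2*, and the latter fell to 0.96 and lost its call without *6KO2* replicate 3.

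*Ifit2* was the most abundant IFIT member in WT and changed least of the 4 against WT in each condition except *E2*, where *Ifit1* changed less (0.34 against 0.47). Its libraries measured 54.9, 80.2 and 63.1 CPM in WT and 167, 187 and 186 in *6KO1*, which did not overlap. The remaining conditions lay between 63.5 CPM in an *E1* library and 156 in an *E1 S1S2* library. *Ifit2* was upregulated in *E1 S1S2* (1.16, SE 0.12, adjusted p = 3.45e-08) and *6KO1* (1.45, SE 0.12, adjusted p = 3.39e-10). In *E1E2* (0.93) and *E1E2 G9Gl* (0.97) it fell just short of the fold threshold, which it passed in both without WT replicate 2 (1.09 and 1.13).

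*Ifit3* and *Ifit3b*, whose proteins partner with IFIT1 and IFIT2, changed most among the IFIT members. *Ifit3* measured 2.78, 4.54 and 3.01 CPM in WT, 40.3, 40.4 and 38.5 in *E1E2 G9Gl* and 82.6, 93.0 and 95.3 in *6KO1*. *Ifit3b* measured 0.505, 0.577 and 0.555, 12.3, 13.8 and 10.7 and 24.1, 28.7 and 30.7 CPM in the same conditions. For both genes the 3 conditions were fully separated. The log2 fold change in *6KO1* was 4.70, SE 0.31, adjusted p = 4.29e-12 for *Ifit3* and 5.66, SE 0.38, adjusted p = 4.77e-12 for *Ifit3b*. As the pair shares sequence, how far each gene's count holds reads of the other is not known.

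The IFIT relatives *Ifit1bl1* and *Ifit1bl2* were almost silent in WT, with 0 to 3 and 0 to 6 counts per library. In *6KO1* they held 59 to 81 and 261 to 317 counts. *Ifit1bl2* starts 128 bases from *Ifit1* on the opposite strand, and its upstream promoter window covers the same pair of ISRE cores. Both were upregulated in *E1 S1S2*, *6KO1*, *E1E2 G9Gl* and *6KO2*, and *Ifit1bl2* also in *E1E2*, with log2 fold changes in *6KO1* of 5.46 (adjusted p = 2.53e-12) and 6.72 (adjusted p = 3.39e-14).

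*Rsad2*, encoding viperin, measured 10.7, 10.5 and 12.2 CPM in WT, 27.4, 28.1 and 28.8 in *E1*, 99.6, 101 and 97.4 in *E1 S1S2* and 162, 171 and 172 in *6KO1*. For the second series the values were 37.6, 18.7 and 39.0 CPM in the *E2* libraries and 125, 93.9 and 90.7 in those labelled *E1E2*. The *E1E2 G9Gl* libraries measured 26.6, 26.2 and 25.8 CPM, and the *6KO2* libraries 27.9, 21.2 and 38.5 CPM. The *E1E2 G9Gl* libraries lay below all *E1E2* and all *E1* libraries. No other member had an *E1E2 G9Gl* library below the *E1* range. *Rsad2* was upregulated against WT in each of the 7 conditions, with the smallest log2 fold change in *E1E2 G9Gl* (1.23, SE 0.21, adjusted p = 1.74e-05) and the largest in *6KO1* (3.92, SE 0.21, adjusted p = 9.19e-14).

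*Cmpk2*, a nucleotide kinase gene 12752 bases from *Rsad2*, was likewise lower in *E1E2 G9Gl* than in *E1E2*. It measured a mean of 5.72 CPM in WT, 31.4 in *E1E2*, 15.7 in *E1E2 G9Gl* and 50.7 in *6KO1*. Its difference between *E1E2 G9Gl* and *E1E2* was -0.999 (adjusted p = 7.18e-05), which did not reach the fold threshold.

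*Ifi44* was the lowest member per kilobase in WT and, after *Usp18*, the member with the largest change in *6KO1*. It measured 0.337, 0.397 and 0.396 CPM in WT and stayed at 0.193, 0.390 and 0.729 in *E1* and 0.752, 0.0708 and 0.938 in *E2*, where the libraries overlapped those of WT. It measured 1.51, 1.54 and 1.92 CPM in *E1 S1S2* and 48.4, 47.8 and 52.0 in *6KO1*. Its values were 2.68, 3.37 and 3.10 CPM for *E1E2*, 26.8, 25.2 and 27.4 after loss of *G9a* and *Glp* (*E1E2 G9Gl*), and 3.80, 1.22 and 4.62 for *6KO2*. The libraries of *6KO1* and *E1E2 G9Gl* were well above all others. The log2 fold change was 7.01, SE 0.35, adjusted p = 2.80e-14 in *6KO1* and 6.11, SE 0.36, adjusted p = 6.01e-13 in *E1E2 G9Gl*. Its relative *Ifi44l* had 0 counts in all 24 libraries.

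**Figure D3:**
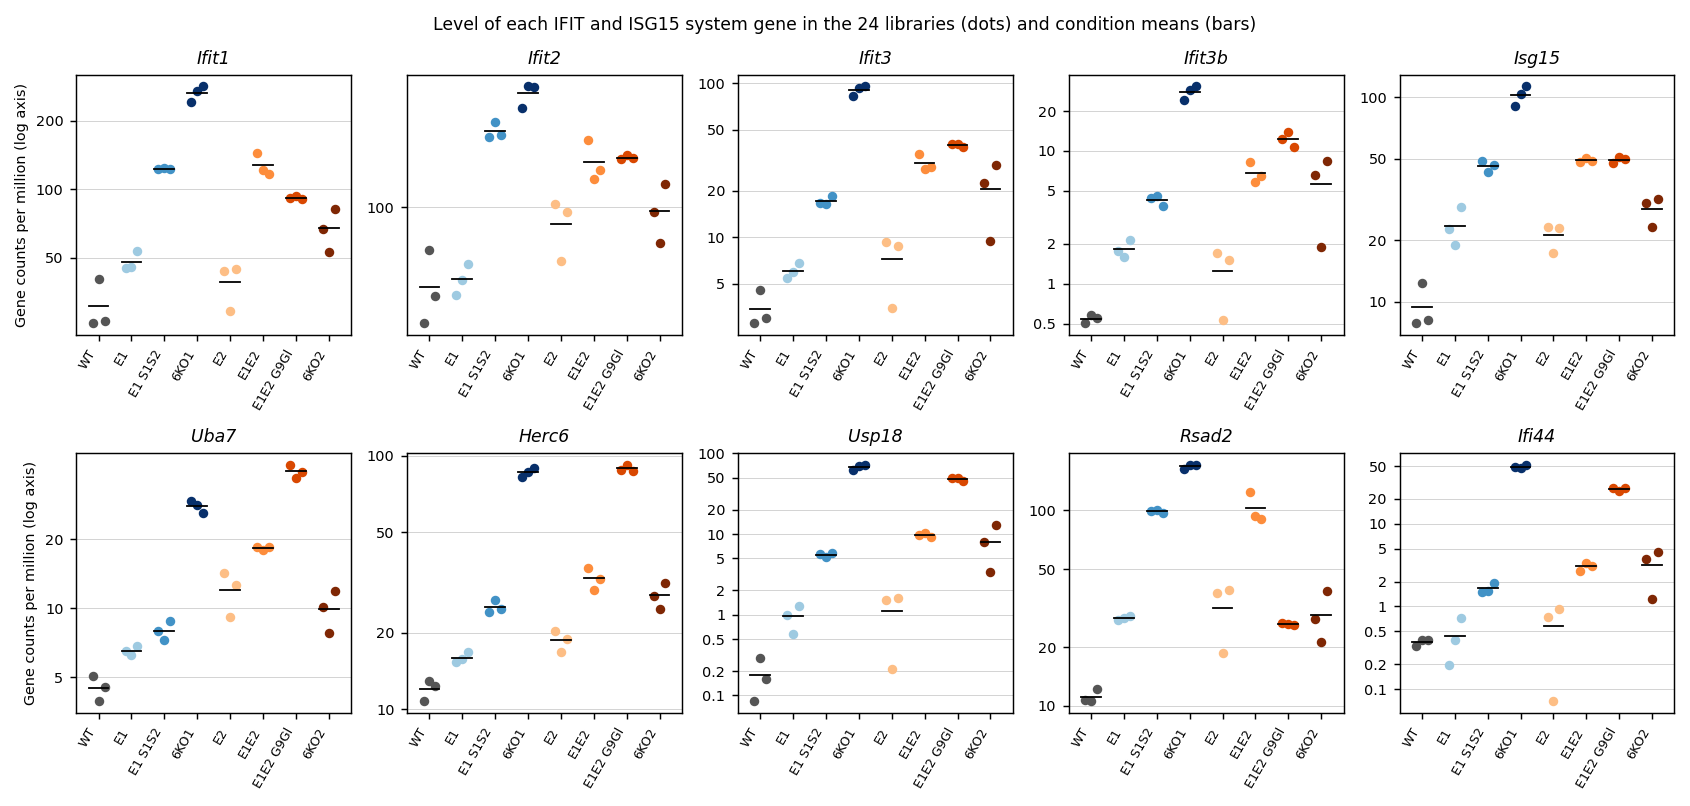
Level of each member in CPM (log axis) in the 24 libraries, grouped by condition, with dots for libraries and bars for the mean of 3. The mean is highest in *6KO1* for 8 members, in *E1E2 G9Gl* for *Uba7* and *Herc6*, and that of *Rsad2* drops from *E1E2* to *E1E2 G9Gl*.

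The clone series allowed each step to be compared with the condition before it. Adding *Suv39h1* and *Suv39h2* inactivation to *E1* raised 7 of 10 members (all genes, 4.31% up and 3.75% down). The largest changes were those of *Usp18* (2.51, SE 0.41, adjusted p = 2.24e-05) and *Rsad2* (1.82, SE 0.19, adjusted p = 4.69e-08). *Isg15* at 0.96, *Herc6* at 0.66 and *Uba7* at 0.29 did not pass. The call for *Ifit3b* was lost when any 1 of the 6 libraries compared was left out, with adjusted p-values of 0.0102 to 0.0268, and that for *Ifi44* without *E1 S1S2* replicate 3, *E1* replicate 1 or *E1* replicate 2 (edgeR).

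From *E1 S1S2* to *6KO1*, 8 members rose (all genes, 16.3% up and 5.02% down). *Ifi44* rose 29.8-fold (log2 4.90, SE 0.28, adjusted p = 4.72e-13) and *Usp18* 12.3-fold (log2 3.62, SE 0.28, adjusted p = 9.64e-11). *Uba7* and *Herc6* rose by similar amounts, 1.79 and 1.77. *Ifit2* (0.28, adjusted p = 0.0438) and *Rsad2* (0.76, adjusted p = 7.81e-04) did not pass the fold threshold.

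In the second series, 7 members were higher in the libraries labelled *E1E2* than in *E2* (all genes, 2.32% up and 0.657% down). The largest change was that of *Usp18* (3.23, SE 0.40, adjusted p = 2.75e-06), followed by *Ifit3b* at 2.53 and *Ifi44* at 2.48. Without *E2* replicate 2, *Usp18* was at 2.64 and *Ifi44* at 1.84, and without *E2* replicate 3 at 3.63 and 3.03, with both still called. *Isg15* rose by 1.23, and *Ifit2* at 0.46, *Uba7* at 0.62 and *Herc6* at 0.82 did not reach the fold threshold. Every *E1E2* library was above every *E2* library for all 10 members.

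The step from *E1E2* to *E1E2 G9Gl*, the inactivation of *G9a* and *Glp*, divided the members. On the log2 scale *Ifi44* rose by 3.12, SE 0.26, adjusted p = 4.81e-10, *Usp18* by 2.31, SE 0.26, adjusted p = 6.74e-08, *Herc6* by 1.44, SE 0.09, adjusted p = 7.30e-13 and *Uba7* by 1.11, SE 0.12, adjusted p = 4.50e-08. *Rsad2* fell 3.94-fold (log2 -1.98, SE 0.19, adjusted p = 5.36e-09). These were 4 members up and 1 down, where 14.8% of all genes were upregulated and 6.78% downregulated. *Isg15* showed a difference of 0.01 with a 95% interval of -0.27 to 0.29, whose sign turned to -0.01 when library sizes were taken from genes and repeats together, and that of *Ifit2* was 0.04 with an interval of -0.20 to 0.27. *Ifit1* at -0.48, with all *E1E2 G9Gl* libraries below those of *E1E2*, and *Ifit3b* at 0.84, with all above, lay on opposite sides without passing the threshold. In the promoters shown or searched above, *Ifi44*, *Herc6* and *Uba7*, which rose here, hold no exact match to the ISRE core, and near matches were not searched. *Usp18*, which also rose, had no promoter listed. *Rsad2*, which fell, and *Ifit1*, *Ifit3*, *Ifit3b* and *Isg15*, which were not called, hold at least 1 match. *Ifit2*, which was not called either, holds none. The IFIT relatives *Ifit1bl1* and *Ifit1bl2* do not follow this division, since each holds a core in at least 1 of its promoter windows and rose here (2.62 and 3.07). This is a description and was not tested.

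From *E1E2 G9Gl* to *6KO2*, no member rose and 5 fell (all genes, 7.19% up and 9.12% down). *Ifi44* fell by 3.03 on the log2 scale (SE 0.26, adjusted p = 1.34e-09), *Usp18* by 2.58, *Uba7* by 1.99 and *Herc6* by 1.67. This comparison shares the *E1E2 G9Gl* libraries with the one before it. *Ifit3b* was the fifth, at -1.12 (adjusted p = 0.00182), and lost its call at -0.72 without *6KO2* replicate 2. For 9 members all *6KO2* libraries lay below all *E1E2 G9Gl* libraries, and *Rsad2* overlapped (0.16, interval -0.23 to 0.54).

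**Figure D4:**
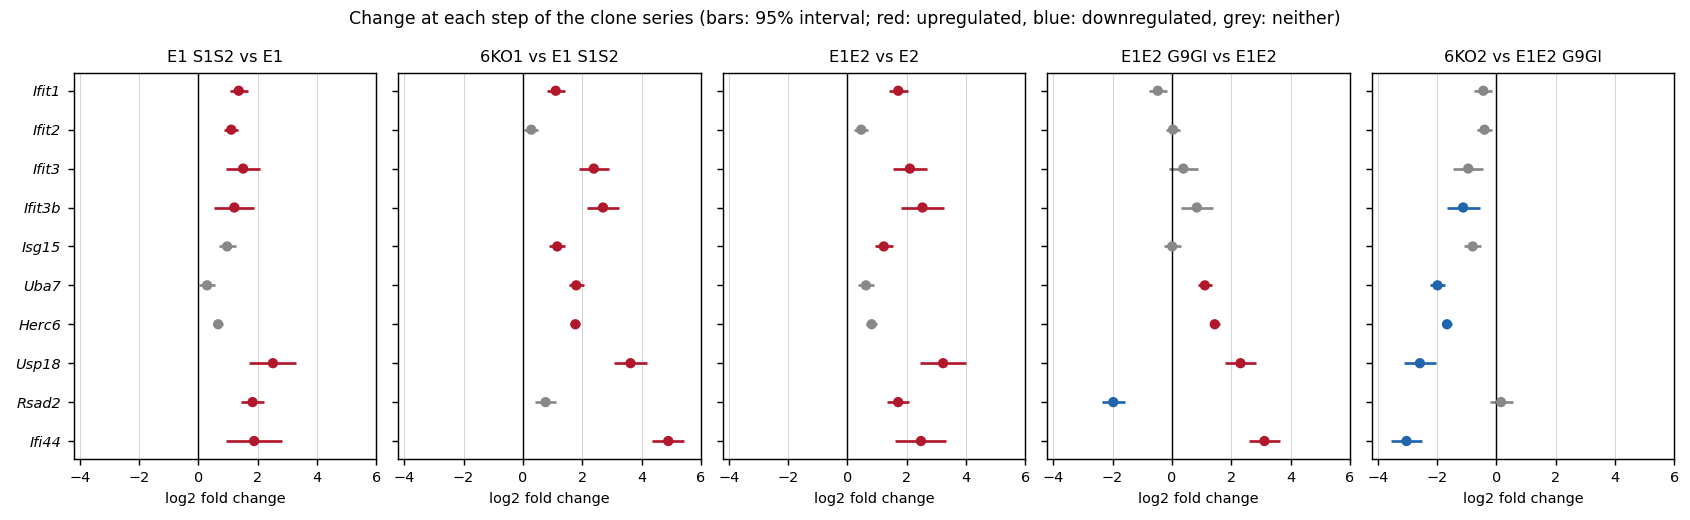
Fitted log2 fold change of each member (x axis) at each step of the clone series, with bars for the 95% interval. Red marks upregulated, blue downregulated and grey neither. All 10 points lie right of 0 in the first 3 panels; in the fourth *Rsad2* lies at -1.98, and in the last only *Rsad2* is not left of 0.

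The lines lacking all 6 genes differed in the level of the members. Every *6KO2* library was below every *6KO1* library for 10 of 10 members, and 9 were downregulated in *6KO2* against *6KO1*, the exception being *Ifit2* at -0.88 (all genes, 7.1% up and 9.77% down). *Ifi44* was 15.2-fold lower (log2 -3.93, SE 0.26, adjusted p = 1.25e-11), *Usp18* 8.50-fold, *Rsad2* 5.77-fold and *Uba7* 2.79-fold. The count of 9 was the same when *6KO2* replicate 2 or *6KO2* replicate 3 was left out. As each line is 1 clone and the genes were lost in another order, clone and order cannot be told apart.

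Differences between steps were tested in the same fit. The change with *Suv39h1* and *Suv39h2* inactivation in the second series (*6KO2* against *E1E2 G9Gl*) was lower than that in the first (*E1 S1S2* against *E1*) for all 10 members, where 16.5% of all genes passed in either direction. The difference ranged from -1.51 for *Ifit2* (adjusted p = 1.36e-07) to -5.09 for *Usp18* (adjusted p = 7.04e-09). The change with 4-OHT in the *Eset2* mutant line (*E1E2* against *E2*) exceeded that in the parental line (*E1* against WT) for 1 member, *Ifit1*, by 1.07, SE 0.23, adjusted p = 0.00184, where 3.42% of all genes passed. That call was lost without *E1E2* replicate 1, *E2* replicate 2 or WT replicate 2 (0.83 to 0.97). For the other 9 members the difference did not pass, from -0.09 for *Isg15* (interval -0.52 to 0.35) to 2.24 for *Ifi44* (interval 0.59 to 3.89).

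The members also moved together between libraries of the same condition. *E2* replicate 2 and *6KO2* replicate 2 were the lowest of their condition for 10 of 10 members, with a median of 0.575 and 0.673 times the mean of the other two libraries. *E1* replicate 3 and *6KO2* replicate 3 were the highest for 10 of 10, and WT replicate 2 was the highest for 8. The lowest ratio was 0.0838 for *Ifi44* in *E2* replicate 2 and 0.253 for *Ifit3b* in *6KO2* replicate 2. In *6KO2* the coefficient of variation of the members had a median of 25.7%, and in *E2* 28.9%, against 3.08% in *E1E2 G9Gl* and 6.87% in *6KO1*. Over the 45 member pairs, the correlation of the log2 levels across 24 libraries had a median of 0.879 (0.483 to 0.986), and that of the deviations from the condition means had a median of 0.777 (0.296 to 0.952). These are descriptions, since libraries of 1 condition share a clone. Differences between replicates were not confined to the members. Over all genes of sufficient count, WT replicate 2 had a chi-square per gene of 68.3 and 57.0 against the other WT libraries, which gave 5.04. For *E2* replicate 2 it was 17.3 and 18.4, against 5.94 between the others, and for *6KO2* replicate 2 it was 6.01 and 7.06, against 5.37. The correlation of deviations was not computed between other genes.

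**Figure D5:**
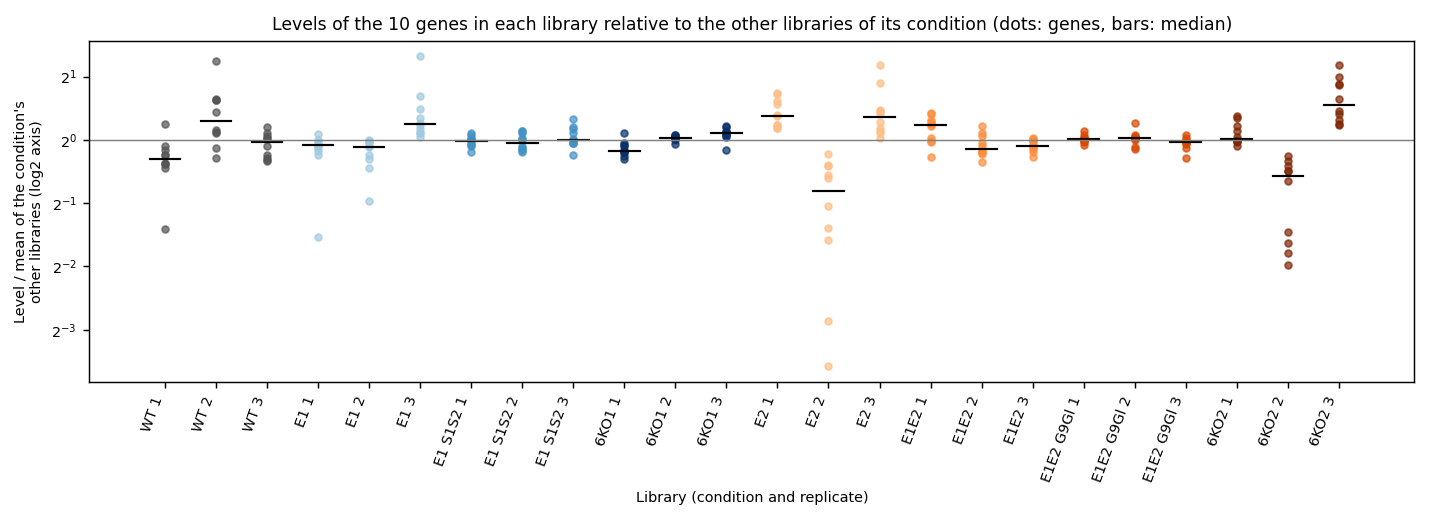
Level of each member in a library divided by the mean of the other libraries of its condition (log2 axis), with dots for the 10 members and bars for their median. *E2* replicate 2 (median 0.575) and *6KO2* replicate 2 (0.673) lie below 1 for all members, and *6KO2* replicate 3 (1.47) above 1.

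*Ifit3* was the member closest to the mean pattern of all 10 over the 24 libraries, with a Pearson correlation of 0.991, and *Rsad2* the furthest at 0.789. Outside the members, the genes most like this mean were *Irf7* (0.988), the transcription factor that amplifies interferon production, and *Irf9* (0.978), the DNA-binding subunit of the interferon-activated complex. *Parp12*, *Oasl2*, *Rtp4*, *Ddx58*, *Mx2*, *Fbxo32*, *Eif2ak2* and *Plscr2* followed, down to 0.959. The correlations are over libraries that share clones and describe these libraries only.

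The genes that act upstream of the members were read from lists chosen by function. Of 10 interferon genes, none was abundant enough to be tested. *Ifnb1* had 0 counts in all libraries of WT, *E1*, *E1 S1S2* and *E2*, and 2 to 7 counts per library in *6KO1*, 1 to 4 in *6KO2*, 2 to 3 in *E1E2* and 1 to 2 in *E1E2 G9Gl*, where 3 counts is the limit taken for detection. *Ifna1*, *Ifna5*, *Ifnk*, *Ifng*, *Ifnl2* and *Ifnl3* had 0 counts throughout, and *Ifna2*, *Ifna4* and *Ifne* had means of at most 0.110 CPM. *Ifnb1* was thus above 0 counts in every library of *6KO1*, *6KO2*, *E1E2* and *E1E2 G9Gl*, and at 0 in all others. This split was not tested, as *Ifnb1* did not pass the filter, and most libraries lay at or below that limit.

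Of the genes of the interferon receptor and its signal path, *Irf9* rose by 2.71 in *6KO1* and 1.08 in *6KO2*. The receptor subunits *Ifnar1* and *Ifnar2* measured -0.13 and -0.19 in *6KO1* and were not called in any condition against WT.

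Of 11 genes that sense RNA or relay the signal, 5 were upregulated in *6KO1* (all genes, 20.6%) and 5 in *6KO2* (all genes, 15.3%). *Irf7* rose by 7.06 in *6KO1* and 3.93 in *6KO2*, and the RNA sensor genes *Ifih1* by 3.46 and 1.81, *Tlr3* by 2.93 and 1.99 and *Ddx58* by 2.76 and 1.71. The adaptor *Mavs* and the factor *Irf3* were not called against WT in any condition. Of 3 negative regulators of the pathway outside the members (*Socs1*, *Socs3* and *Ptpn11*), none was called against WT in any condition.

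Of 32 other interferon-stimulated genes, 7, 23 and 32 were upregulated along the first series (*E1*, *E1 S1S2* and *6KO1*), against 2.27%, 6.65% and 20.6% of all genes. Along the second (*E2*, *E1E2*, *E1E2 G9Gl* and *6KO2*) 14, 27, 28 and 24 were, against 2.9%, 5.51%, 16.8% and 15.3%. None was downregulated against WT. The largest mean changes over both 6-gene mutants were those of *Oas3* (10.14 in *6KO1* and 5.80 in *6KO2*), *Trim30a* (9.99 and 5.72), *Oas2* (9.45 and 4.75), *Sp100* (8.56 and 5.49) and *Oas1a* (8.12 and 3.96). At the step from *E1E2* to *E1E2 G9Gl*, 18 of these genes rose and 3 fell (all genes, 14.8% up and 6.78% down). The 3 that fell were *Zbp1* (-2.92), *Mx1* (-1.68) and *Oasl1* (-1.01). From *E1E2 G9Gl* to *6KO2*, 23 fell and 1, *Zbp1*, rose (1.75), where 9.12% of all genes were downregulated and 7.19% upregulated.

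The genes nearest to the members behaved unevenly. Of the 16 nearest tested protein-coding genes outside the members, 10 were upregulated in *6KO1*, 5 in *6KO2* and 7 in *E1E2 G9Gl*, among them both IFIT relatives. Of all genes tested, 20.6%, 15.3% and 16.8% were upregulated in these conditions. The nearest genes were not all close: *Id2* lies 1345606 bases from *Rsad2*, *M6pr* 1037803 from *Usp18*, and *Adgrl2* 2740367 and *Gipc2* 343573 from *Ifi44*. *Id2* was among those upregulated in all of these conditions, and *Gipc2* among those in *6KO1*. *AW011738*, 2486 bases from *Isg15*, was upregulated in each of the 7 conditions, by 1.34 in *E1* and 3.52 in *6KO1*. *Inka1*, 163 bases from *Uba7*, was downregulated in *E1E2 G9Gl* and *6KO2* (log2 -1.90 and -1.51), where *Uba7* was upregulated, and in *E1 S1S2* (-1.65), where *Uba7* was not called. It was not called in *6KO1* (-0.65) and rose from *E1 S1S2* to *6KO1* (1.001), as *Uba7* did. *Agrn*, 1936 bases from *Isg15*, was upregulated in *E1 S1S2* (1.05), *6KO1* (1.63), *E1E2* (1.125), *E1E2 G9Gl* (1.51) and *6KO2* (1.14). *Lipa*, the lysosomal lipase gene beside the *Ifit* cluster, rose in *6KO1* (1.23), *Pank1* on its other side was not called against WT (-0.82 in *6KO1*), and *Ch25h* and *Slc16a12* had means below 1 CPM in every condition. *Ch25h* was nonetheless upregulated in *6KO2* (3.77), with a mean of 0.779 CPM.

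Markers of leukocytes, which express many of these genes, were read in the same libraries. The summed level of 8 leukocyte markers was 3.53 to 4.17 CPM in WT, 23.2 to 26.4 in *6KO1* and 26.8 to 27.6 in *E1E2 G9Gl*. It was 5.19 to 6.33 in *6KO2* and between 2.13 and 5.56 in the other mutants. Most of the sum was *Cd68* in *6KO1* (19.4 CPM) and *Itgam* in *E1E2 G9Gl* (20.04 CPM). In WT, 4 of the 8 markers were at 0 counts in all libraries, and 2 were in *6KO1* and in *E1E2 G9Gl*. The macrophage marker *Adgre1* was at 0 counts in all libraries and *Ptprc*, the common leukocyte antigen, had means of 0.619 CPM in *6KO1* and 1.89 in *E1E2 G9Gl*. Against WT, *Ptprc*, *Itgam* and *Itgax* were upregulated in *6KO1* (log2 fold changes 6.985, 8.96 and 6.86). The same genes were upregulated in *6KO2* (7.23, 7.43 and 4.69) and *E1E2 G9Gl* (8.58, 11.99 and 4.19), and *Itgam* also in *E1* (4.84). *Cd68* was upregulated only in *6KO1* (2.32), and *Cd3e* only in *E1E2 G9Gl* (8.39). *Ptprc*, *Itgam* and *Cd3e* had 0 counts in WT, so the sizes of their folds are uncertain. Summed epithelial markers (4 genes) were lowest in WT, at 1.22 to 1.98 CPM, and highest in *6KO1*, at 16.6 to 17.6. Most of this was the keratin gene *Krt8*, upregulated in all 7 conditions (4.07 in *6KO1*), while *Epcam* was downregulated in *6KO1* (-2.76). Summed endothelial markers (3 genes) were 0.436 to 0.589 CPM in WT, 3.75 to 4.34 in *6KO1*, 2.61 to 3.15 in *E1E2 G9Gl* and 3.80 to 5.10 in *6KO2*. *Cdh5*, an endothelial cadherin gene, had 0 to 3 counts per library in WT, 61 to 83 in *6KO1* and 25 to 36 in *E1E2 G9Gl*. Mean levels of the members were highest in *6KO1*, except those of *Uba7* and *Herc6*, which were highest in *E1E2 G9Gl*. *Rsad2* and *Ifit1* were lower in *E1E2 G9Gl* than in *E1E2*. The part of these markers in the members' levels was not tested. In bulk RNA, more cells with a gene on and more RNA per cell cannot be told apart.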

How the data were processed

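Total RNA libraries were made with a stranded kit and sequenced as paired 75-base reads, with 3 biological replicates per line, each line being 1 clone, so p-values measure the spread between cultures of a clone. The authors trimmed reads with cutadapt 1.8.1, aligned them to GRCm38 with STAR 2.5.2b and deposited raw counts per Ensembl gene and per repeat element from TEtranscripts. Its strand setting is not given in the sources used here. One malformed entry (0.002005% of counts) and the 1445 repeat elements were left out of library sizes. Symbols came from the reference tables (47224 of 47937 identifiers matched) and lengths from GENCODE exons.

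Counts were scaled by TMM and tested with edgeR 4.0.16 (R 4.3.3), filtered by filterByExpr, with 1 quasi-likelihood fit over all 24 libraries and a coefficient per condition. A call required a log2 fold change of at least 1 in size and a Benjamini-Hochberg adjusted p of at most 0.01 over 18565 genes. SE is the log2 fold change divided by the root of F. With 3 libraries against 3, no exact permutation test can go below 0.1, so none was used. On counts simulated for *6KO1* against WT with 18565 genes, 92 of 100 genes changed by 1.5 (log2), 97 of 100 changed by 3 and 0 of 18365 unchanged genes were called. No 2 libraries of a condition agreed within sampling noise (chi-square per gene 2.24 to 68.3). Alternatives were DESeq2 1.42.0, other size factors, filters, thresholds and sets of libraries. Leaving out 3 libraries together was chosen after seeing the data.

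The members and gene lists were chosen with earlier results of these data known. All members are named. Of the other lists, every gene of the IFIT relatives, ISG15 partners, neighbours and interferons was considered, and of the rest up to 5 genes per list with the largest mean change among those called in both *6KO1* and *6KO2*. *Mavs*, *Irf3*, *Ifnar1*, *Ifnar2*, *Zbp1*, *Mx1*, *Oasl1*, *Setdb1*, *Ehmt2*, the negative regulators and the cell type markers named were chosen after their values were seen. One gene of the signal path is not reported here.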

Additional observations from a re-analysis of the deposited data

Results flagged for a closer look

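Differences between steps that passed the test are given here as values. The change with *Suv39h1* and *Suv39h2* inactivation (*6KO2* against *E1E2 G9Gl*, less *E1 S1S2* against *E1*) was lower in the second clone series for all 10 members in edgeR's quasi-likelihood test. On the log2 scale the difference was -1.80 for *Ifit1*, -1.51 for *Ifit2*, -2.46 for *Ifit3* and -2.33 for *Ifit3b*. It was -1.76 for *Isg15*, -2.28 for *Uba7*, -2.33 for *Herc6* and -5.09 for *Usp18*. It was -1.67 for *Rsad2* and -4.91 for *Ifi44*. The count of 10 was the same with each library left out in turn. The change with 4-OHT was larger in the *Eset2* mutant line than in the parental line for *Ifit1*, by 1.07, and this call was lost when any of 3 libraries was left out.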

How the results depend on the processing

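The counts of members called in 28 comparisons and directions were recomputed under each alternative. Other size factors (RLE), library sizes from genes and repeats together, a mean normalized count above 100 and a replicate block moved none of the 28 by more than 1.5 times. The count upregulated in *E1*, 2 in the fit reported, was 4 with unadjusted p, without a fold minimum, with DESeq2 and with no filter on low counts, 5 with 3 libraries left out together (WT, *E2* and *6KO2* replicate 2), and 2 to 4 with each library left out in turn. The count upregulated in *E2*, 3 as reported, was 5 with unadjusted p, without a fold minimum and with DESeq2, 6 with no filter, 6 with 3 libraries left out and 3 to 5 with each left out in turn. The 5 members downregulated in *6KO2* against *E1E2 G9Gl* became 8 without a fold minimum. The 1 member past the threshold for the 4-OHT effect by line became 2 with unadjusted p, 3 with no filter, 0 with only the libraries compared and with 3 libraries left out, and 0 to 1 with each left out in turn. The cause was not tested.

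Of the changes of single members, those whose sign turned were not called as reported. Isg15 in *E1E2 G9Gl* against *E1E2* was -0.0087 with genes and repeats together, and Usp18 in the 4-OHT effect by line was -0.30 with 3 libraries left out. With each library left out in turn, the log2 fold change of Ifit2 in *E1* ranged from -0.057 to 0.22, that of Ifi44 from -0.37 to 0.58 in *E1* and from -0.041 to 1.15 in *E2*. In *E1E2 G9Gl* against *E1E2*, Ifit2 ranged from -0.021 to 0.12 and Isg15 from -0.0082 to 0.036. Rsad2 in *6KO2* against *E1E2 G9Gl* ranged from -0.092 to 0.34. In the 4-OHT effect by line, Isg15 ranged from -0.33 to 0.098 and Uba7 from -0.091 to 0.22.

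Replicate numbers did not pair the libraries: of 84 same-numbered pairs, 6 had deviations correlated above 0.1 (median 0.0026). With the replicate block, all 28 counts and all 150 member changes kept their side of the threshold, with 10 members up in *6KO1* and 9 in *6KO2*. Depth limits *Usp18*, *Ifi44* and *Ifit3b* in WT, *E1* and *E2*, and the interferon genes everywhere.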
